A study of Mus musculus with 16 samples.

Results

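The promoters of 10 genes of bile acid synthesis, conjugation, transport and control were followed in promoter capture Hi-C data from mouse liver. This method joins DNA fragments that lie close together in the nucleus and then enriches the joined pairs that carry a promoter. The members are Cyp7a1, Cyp8b1, Cyp27a1 and Cyp7b1, the enzymes Slc27a5 and Baat, the transporters Slc10a1 and Abcb11, and the regulators Nr1h4 and Nr0b2. They were chosen by gene name, and their contacts are all listed fragment pairs with an end on the HindIII fragment that holds the gene start (GENCODE vM1, build mm9). Such a captured fragment is called a bait. All 10 gene starts lay on baits, these were 10 different fragments, and no other gene start lay on any of them. The 10 baits, of 18165 in all, took part in 211 distinct contacts of 247177 distinct pairs. No listed pair joined one member promoter to another, and no contact crossed to another chromosome.

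The livers came from wild type C57BL/6 male mice. The study describes mice 8 weeks of age that were kept under a light-dark cycle for 2 weeks, with food always at hand. Livers were collected at zeitgeber times ZT0 (lights on), ZT6, ZT12 and ZT18, with 3 pools of 2 livers each and no treatment. The pools of a timepoint were merged before contacts were called, so that each timepoint has 1 list of pairs and no value here has a replicate error. A difference between timepoints is therefore given as a value with no test. The unit is the CHiCAGO score, which rises as a pair has more reads than the caller's model predicts for fragments that far apart, and a pair is listed where the score is at least 5. A pair absent from a list scored under this minimum, which is no measurement of few reads. The liver holds several cell types besides hepatocytes, the lists hold no expression values, and the cell type behind a contact cannot be told apart. Timepoints follow the sample labels, and a table of totals that came with the study puts those of ZT6, ZT12 and ZT18 in another order. Read in that order, these lists would be ZT18, ZT6 and ZT12, which changes every statement on a named timepoint other than ZT0.

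Hepatocytes turn cholesterol into bile acids, join them to taurine or glycine, and pump them into bile. Cyp7a1 opens the classical route and sets its rate, and Cyp8b1 directs the product toward cholic acid. Cyp27a1 and Cyp7b1 act in the alternative route, which starts with oxidation of the side chain. Returning bile acids bind the nuclear receptor FXR, encoded by Nr1h4, which induces the repressor SHP, encoded by Nr0b2. SHP in turn lowers Cyp7a1 and Cyp8b1 through the receptors NR5A2 and HNF4A that hold these promoters active. Bile acid synthesis is known to follow a daily rhythm. The study lists Cyp8b1 and Abcb11 among genes whose RNA is circadian and also speaks of Cyp7a1 as circadian, and RNA levels were not analysed here.

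The promoter sequences were read from mm9 as the 250 bases before each gene start, 5′ to 3′ on the gene's strand, a window without annotated exons in all 10 genes. Searched on both strands were CAAGGNCA (NR5A2), CAAAGTCCA (HNF4A), CACGTG (E-box), TTATGNAA (D-box), ANTAGGTCA (REV-ERB/ROR element) and the AGGTCA inverted repeat with 1 base between its arms (the FXR site). CAAGGNCA occurred before 3 members and before 5.06% of 22375 protein-coding gene starts. Of the 3, Cyp8b1 and Nr0b2 are described here, an enzyme gene and the gene of the repressor that lowers it. They lie at chr9:121825424-121825673 (minus strand) and chr4:133109041-133109290 (plus strand). Capitals mark the matches.
Cyp8b1: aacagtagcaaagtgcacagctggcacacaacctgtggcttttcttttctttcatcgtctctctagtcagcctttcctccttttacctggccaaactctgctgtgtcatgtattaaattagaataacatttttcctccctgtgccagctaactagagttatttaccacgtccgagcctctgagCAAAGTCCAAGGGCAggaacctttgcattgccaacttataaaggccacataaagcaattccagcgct
Nr0b2: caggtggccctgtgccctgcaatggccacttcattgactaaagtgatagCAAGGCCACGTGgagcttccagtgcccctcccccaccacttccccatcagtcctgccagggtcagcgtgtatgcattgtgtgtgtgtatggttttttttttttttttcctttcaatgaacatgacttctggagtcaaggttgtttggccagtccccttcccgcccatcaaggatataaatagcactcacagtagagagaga

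The NR5A2 letters began 60 bases before the start of Cyp8b1 and 201 bases before that of Nr0b2. In Cyp8b1 they overlapped an HNF4A match that began 67 bases before the start, and in Nr0b2 they overlapped an E-box at 195 bases. CAAAGTCCA also lay 24 bases before Baat, and it occurred before 0.398% of all gene starts. An E-box lay 220 bases before Slc27a5 (6.52% of all gene starts). The D-box letters TTATGNAA were matched 99 bases before Cyp27a1, as TTATGAAA. On the opposite strand they were matched 99 bases before Slc10a1, where the gene's strand reads TTGCATAA (3.16% of all gene starts). No member held the REV-ERB/ROR letters (0.487% of all gene starts) or the exact inverted repeat, which occurred in 0 of the 22375 windows. The windows of Cyp7b1, Abcb11 and Nr1h4 held no match. A match is a description of the letters and not a measured site.

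The windows of Abcb11 and Nr1h4 are shown because a HindIII site, AAGCTT, cuts them, as in 5.81% of all such windows. They lie at chr2:69180672-69180921 and chr10:88996331-88996580, both on the minus strand. The bait of Abcb11 holds 171 of the 250 bases and that of Nr1h4 holds 19, so that contacts of the remaining upstream bases of Nr1h4 were not measured through this bait. Capitals mark the cut site.
Abcb11: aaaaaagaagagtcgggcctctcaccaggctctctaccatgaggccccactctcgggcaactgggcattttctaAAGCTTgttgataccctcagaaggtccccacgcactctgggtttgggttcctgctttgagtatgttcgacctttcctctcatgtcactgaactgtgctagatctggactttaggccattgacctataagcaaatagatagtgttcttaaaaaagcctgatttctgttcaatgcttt
Nr1h4: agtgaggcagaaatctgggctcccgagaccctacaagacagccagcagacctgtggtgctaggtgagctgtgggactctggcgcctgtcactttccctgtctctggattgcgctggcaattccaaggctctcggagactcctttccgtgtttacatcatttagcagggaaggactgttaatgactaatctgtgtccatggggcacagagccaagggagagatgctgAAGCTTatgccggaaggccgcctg

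The 10 promoters differed widely in how many fragments they contacted. Cyp7b1 had 51 distinct contacts, Abcb11 38, Nr1h4 36, Slc27a5 33 and Cyp7a1 19. The other 5 had few: Slc10a1 had 10, Cyp27a1 8, Cyp8b1 and Baat 7 each, and Nr0b2 had 2. Over 30 contacts were found for 4 members, against 15.0% of all baits, and at most 10 for 5 members, against 54.6% of all baits. Rich and poor promoters were found in every role, and the receptor gene Nr1h4 had 36 contacts and its target Nr0b2 had 2. The bait lengths ran from 877 bp for Cyp7a1 to 11611 bp for Nr0b2, and their part in these numbers was not tested.

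**Figure D1:**
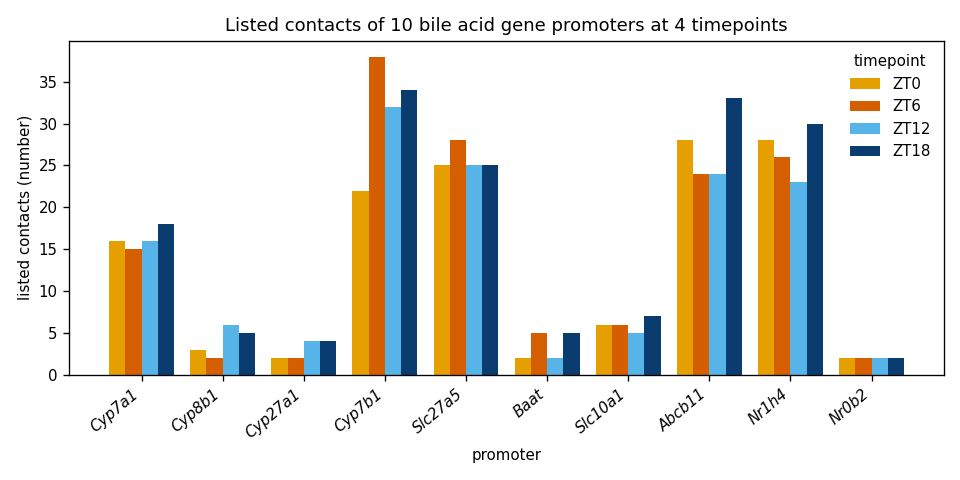
Number of listed contacts (vertical axis) of each of the 10 promoters (horizontal axis) in the merged lists of ZT0, ZT6, ZT12 and ZT18, 1 bar per list, with no replicate error. Cyp7b1 runs from 22 at ZT0 to 38 at ZT6, Abcb11 from 24 to 33, and Nr0b2 stays at 2.

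Together the members had 134, 148, 139 and 163 contacts in the lists of ZT0, ZT6, ZT12 and ZT18, while the whole lists held 146262, 154775, 151529 and 151347 pairs. The ZT18 list thus held most member contacts without being the longest list. Of the 211 distinct contacts, 95 were listed at all 4 timepoints, or 45.0% (95% Wilson interval 38.5 to 51.8), against 32.5% of all distinct pairs. This pooled share does not hold for each member. Cyp27a1 (12.5%), Cyp7b1 (27.5%), Cyp8b1 and Baat (28.6% each) and Slc10a1 (30%) lay below 32.5%. The member contacts lay nearer than other pairs did. The shares of members and of all pairs differed mainly from 50 to 150 kb, with 58.5% of 82 member contacts against 39.6% of all pairs. Within 50 kb they were 48.3% of 60 and 44.4%, and beyond 150 kb 26.1% of 69 and 25%. Most of the 48 constant member contacts from 50 to 150 kb belonged to Abcb11, Slc27a5 and Nr1h4, so this difference rests mainly on these promoters. Of the 211, 28 appeared in 3 lists, 32 in 2 lists and 56 in 1 list. The 56 make up 26.5% (21.0 to 32.9), against 35.2% of all pairs. These intervals cover counting error only, and contacts of one bait adjoin each other and are not independent. The contacts seen once were weak, with scores from 5 to 8.72 and a median of 5.44, while the 95 seen at all 4 timepoints had a median highest score of 12.3. Over all pairs these medians were 5.60 and 10.9.

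A highest score of at least 10 was reached by 71 member contacts, or 33.6%, against 21.5% of all pairs. Of these 71, 3 were missing from at least 1 list, against 10.3% of all pairs at this score. Abcb11 held 2 of them, both in the stretch described below and both absent at ZT6 and ZT12. The third was a contact of Cyp7b1, 632 kb upstream, which scored 10.9 at ZT6, 6.13 at ZT12 and 8.91 at ZT18 and was absent at ZT0.

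**Figure D2:**
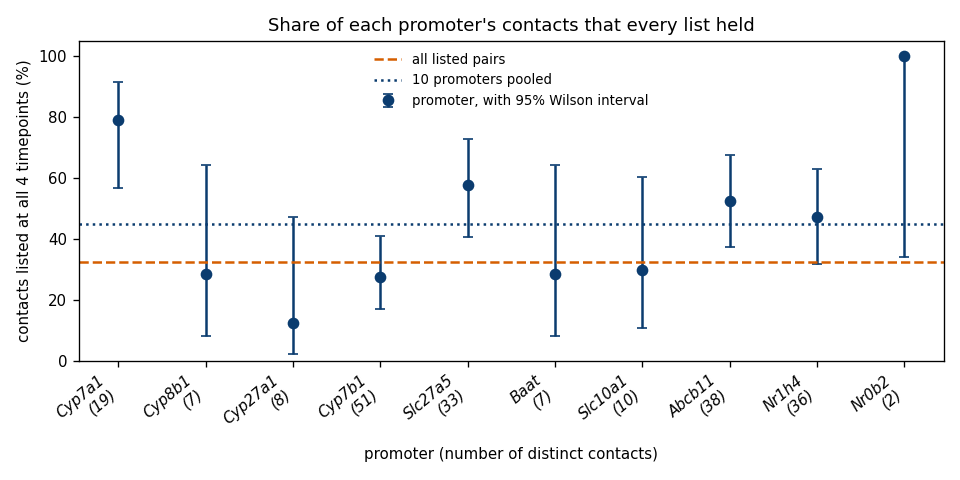
Share of each promoter's distinct contacts that all 4 lists held (points, %) with 95% Wilson intervals for counting error, and the number of distinct contacts in brackets under each name. The dashed line marks all listed pairs (32.5%) and the dotted line the 10 promoters together (45.0%), with Cyp7a1 at 78.9% and Cyp27a1 at 12.5%.

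The classical pathway's first gene had the most constant set among members with over 10 contacts. Cyp7a1 had 16, 15, 16 and 18 contacts in the order of the timepoints, and 15 of its 19 were in every list, or 78.9% (56.7 to 91.5). Of the 19 fragments, 17 lay downstream of the gene start in 1 stretch of 54.9 kb (chr4:6142052-6196948), in which neighbouring fragments are at most 10 kb apart. The stretch runs from an exon of Cyp7a1 itself to exons of Ubxn2b, and 15 of the Cyp7a1 contacts lay between genes. Contacts near a bait are listed at all 4 timepoints more often, and among all pairs within 50 kb this share was 44.4%. Of the 17 Cyp7a1 contacts in this range, 14 were in every list.

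The strongest Cyp7a1 contact was a fragment of 721 bp at chr4:6166231-6166951, 36.1 kb downstream and between genes. Its score was 22.3, 16.7, 25.1 and 24.6 in timepoint order. The ZT6 value was the lowest of the 4, and this was so in 9 of the 15 constant contacts, against 24.7% of all pairs listed at all 4 timepoints. These 15 contacts lie in 1 stretch and were read through 1 bait, so they are no independent repeats. ZT6 was singled out from these same values, and the difference was not tested. The highest score fell at ZT12 in 9, at ZT18 in 5, at ZT0 in 1 and at ZT6 in 0. Among all pairs listed at all 4 timepoints it fell there in 25.6%, 26.0%, 22.0% and 26.1%, in the same order. Over the 15 the medians were 11.3, 9.45, 11.3 and 11.9 from ZT0 to ZT18. The nearest gene start in constant contact was that of Gm11798, 15.8 kb downstream, with scores from 6.04 to 8.03. On the upstream side Cyp7a1 had 2 contacts, each in a single list and with a score of at most 5.75.

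Cyp8b1 had 3, 2, 6 and 5 contacts at ZT0, ZT6, ZT12 and ZT18. Its 2 constant contacts were both gene starts upstream, on baits of their own. The fragment with the start of Fam198a, 36.6 kb away, scored 10.6, 7.57, 10.7 and 10.7 in the order of the timepoints. That of 1700048O20Rik, 24.3 kb away, scored 7.82, 6.81, 8.57 and 7.39. Both were lowest at ZT6, against 24.7% of all pairs listed at all 4 timepoints, and the remaining 5 contacts scored at most 6.28.

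Cyp27a1, whose product starts the alternative route in mitochondria, had the weakest set of the members, with 8 contacts and no score above 6.91. It had 2 contacts in each of the first lists, ZT0 and ZT6, and 4 in each of the others, and none is left at a score minimum of 7. The single constant contact was a fragment of 9707 bp in its own intron, 8.93 kb downstream, with scores of 5.57, 6.05, 5.59 and 6.91. The fragment with the start of Dnpep, a peptidase gene 557 kb downstream, was listed at ZT0 (6.04) and ZT6 (5.20).

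Cyp7b1 had the longest reach. Its median distance was 381 kb, against 81.9 kb over the 211 member contacts and 162 kb over all listed pairs within a chromosome. All 51 contacts lay beyond 150 kb, 49 of them upstream, and the farthest was 922 kb away. Of the 51, 49 lay between genes and the others on the starts of Bhlhe22 downstream and Armc1 upstream. Armc1, 916 kb away and named after its values were seen, scored 8.82 at ZT0, 6.21 at ZT12 and 5.07 at ZT18 and was absent at ZT6. The contacts formed separate stretches, and 7 of the 10 Cyp7b1 stretches were present at all 4 timepoints. The strongest was a group of 6 fragments about 178 kb upstream (chr3:18320777-18329464). Its leading fragment, chr3:18328172-18329137, scored 15.1, 21.7, 22.3 and 28.4 over the 4 timepoints in turn. Further stretches had their midpoints 225, 383, 630 and 806 kb upstream.

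At ZT0 the Cyp7b1 promoter had 22 contacts, and at ZT6, ZT12 and ZT18 it had 38, 32 and 34. The highest number was 1.73 times the lowest, and 1.5 times was reached by 39.4% of all baits with a mean of at least 10 contacts and by 16.6% of those with a mean of at least 30. Among its 13 contacts listed at 3 timepoints, 9 were absent at ZT0, against 29.3% of all such pairs. Among its 14 constant contacts the score was lowest at ZT0 in 7, against 28.3% of all pairs, and highest at ZT18 in 10, against 26.0%. Of baits with at least 10 constant contacts, 3.27% had 1 timepoint highest in at least 70% of them. This cut lies just under the Cyp7b1 share of 71.4%, so the 3.27% is a description and no test. The 14 contacts were read through 1 bait and many adjoin each other, so they are no independent repeats. The median score of these 14 was 8.67 at ZT0 and 12.8, 11.0 and 12.6 at the later timepoints. At a score minimum of 7 the numbers were 13, 17, 15 and 19, so that ZT0 remained lowest while the highest number moved from ZT6 to ZT18. Downstream, 2 contacts 191 and 196 kb away lay at and beside the start of Bhlhe22, a transcription factor gene of neurons.

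The leading fragment of 3 distal stretches is shown. Each is the strongest contact of its promoter that is constant, without exons and on no bait. Abcb11, Cyp27a1, Nr1h4 and Slc27a5 also had such a fragment, and these are not shown. For Cyp7a1 and Slc10a1 the first 120 bases from the cut site are given (chr4:6166230-6166349 and chr12:82288226-82288345, plus strand) with the cut site in capitals. For Cyp7b1 the stretch is chr3:18328739-18328866 on the plus strand, with a CAAGGNCA match in capitals. Of listed fragments within 10% of its length, 26.2% held such a match. The fragments of Cyp7a1 and Slc10a1 held none, against 20.4% and 24.6% at their lengths. Of those not shown, the fragments of Cyp27a1 and Slc27a5 held a match, against 95.2% and 81.9% at their lengths. Those of Abcb11 and Nr1h4 held none, against 32.9% and 44.6%.
Cyp7a1 contact: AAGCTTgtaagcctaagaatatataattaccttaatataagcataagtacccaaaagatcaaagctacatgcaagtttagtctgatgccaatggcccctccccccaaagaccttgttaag
Slc10a1 contact: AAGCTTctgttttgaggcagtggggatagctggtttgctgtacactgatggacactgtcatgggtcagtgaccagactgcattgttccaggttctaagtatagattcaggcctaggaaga
Cyp7b1 contact: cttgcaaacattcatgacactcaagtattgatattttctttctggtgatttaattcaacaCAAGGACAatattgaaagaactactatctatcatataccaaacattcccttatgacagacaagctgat

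**Figure D3:**
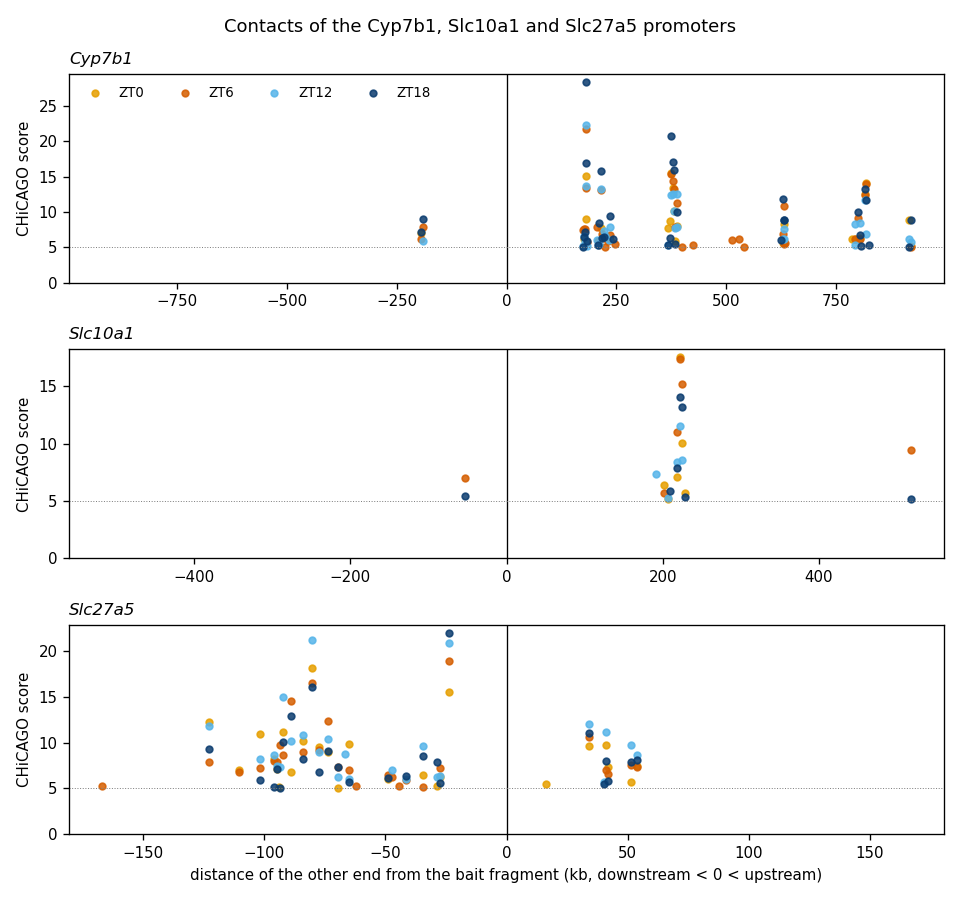
CHiCAGO score (vertical axis) against distance from the bait (kb, horizontal axis, downstream negative and upstream positive) for every listed contact of Cyp7b1, Slc10a1 and Slc27a5, coloured by timepoint. Cyp7b1 shows separate stretches from about 178 kb to 922 kb upstream, Slc10a1 a group near 222 kb upstream with 1 contact 53.2 kb downstream and 1 at 519 kb upstream, and Slc27a5 contacts on both sides within 167 kb. The dotted line is the minimum of 5.

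The conjugation enzymes are neighbours in function and differed in their contacts. Slc27a5, which activates bile acids with coenzyme A, had 25, 28, 25 and 25 contacts at ZT0, ZT6, ZT12 and ZT18, and 19 of 33 were constant, or 57.6% (40.8 to 72.8). Of these 33 contacts, 10 were with other baits, the most of any member. Over all members 31 contacts joined 2 baits, or 14.7% (10.5 to 20.1), against 15.4% of all pairs. Constant contacts were found with the starts of the zinc finger genes Zfp446, Zfp128, Zscan22, Zfp324 and Mzf1, and of Chmp2a with Ube2m. The fragment of Zfp446 scored 15.6, 18.9, 20.9 and 22.0 and was thus highest at ZT18. The 19 constant contacts did not all peak at 1 timepoint. The highest score fell at ZT12 in 9, at ZT6 in 5, at ZT0 in 4 and at ZT18 in 1. Over all constant pairs it fell at ZT12 in 25.6%, at ZT6 in 26.1%, at ZT0 in 22.0% and at ZT18 in 26.0%. The Slc27a5 shares at ZT12 and ZT18 were 47.4% and 5.26%, and this difference was not tested.

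Baat, which joins activated bile acids to taurine or glycine, had 2 contacts at both ZT0 and ZT12 and 5 at both ZT6 and ZT18. Its 2 constant contacts were the shared start of Mrpl50 and Zfp189 and the start of Rnf20, 14.3 and 122 kb upstream. The first scored 5.53, 6.24, 9.27 and 9.37, and the second 6.32, 10.8, 6.90 and 6.83. At a score minimum of 7 Baat had 0, 2, 1 and 2 contacts.

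Slc10a1 encodes NTCP, the carrier that takes bile acids up from blood. It had 6, 6, 5 and 7 contacts, and 8 of its 10 fragments lay in 1 stretch of 40.8 kb about 210 kb upstream (chr12:82256954-82297745), at the end of Smoc1 and beyond it. All 3 of its constant contacts were adjoining fragments there. The strongest, of 892 bp, scored 17.6, 17.4, 11.6 and 14.0 from ZT0 to ZT18. The fragment after it scored 10.02, 15.2, 8.59 and 13.2. Both were lowest at ZT12, while the fragment before them was lowest at ZT0 with 7.09 and highest at ZT6 with 11.0.

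Abcb11 encodes the bile salt export pump of the canalicular membrane. It had the highest score of the members (43.5) and 21 contacts that reached a score of 10. Its contacts numbered 28 and 33 at ZT0 and ZT18, and 24 at both ZT6 and ZT12. Of its 38 fragments, 32 lay in 1 upstream stretch of 104 kb (chr2:69201465-69305566), which spans Dhrs9, a dehydrogenase gene, and the end of Lrp2, the gene of an endocytic receptor. All 20 constant contacts of Abcb11 lay in this stretch. The fragment with the highest score, chr2:69258366-69263264, carries Lrp2 exons 81.9 kb upstream and scored 36.1, 25.9, 24.99 and 43.5 in timepoint order. The fragment with the start of Dhrs9, 47.0 kb upstream, scored 17.0, 12.5, 10.8 and 17.0. The strongest fragment without exons, chr2:69253138-69254479, scored 36.5, 22.0, 30.6 and 34.6.

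In 18 of these 20 contacts the scores of both ZT0 and ZT18 were above those of both ZT6 and ZT12. This was the case in 15.3% of all pairs listed at all 4 timepoints. The highest score fell at ZT18 in 16 and at ZT0 in 4, and 0.909% of baits with at least 10 constant contacts had 1 timepoint highest in at least 80% of them. The medians were 14.6 and 19.3 at ZT0 and ZT18, and 10.9 and 12.8 at ZT6 and ZT12, while over all constant pairs the medians of the 4 lists lay between 8.75 and 8.98. The highest score was at least 1.5 times the lowest in 18 of the 20, against 41.2% of all constant pairs. Of 2969 baits with at least 10 constant contacts, 0.0337%, which is the Abcb11 bait alone, had this order in at least 90% of them, and 1.62% had it in at least 50%. The pattern was chosen after its values were seen, and the cuts of 80% and 90% equal the Abcb11 shares themselves. The 20 fragments lie in 1 stretch, so they are no independent repeats. The lists held 27 and 31 fragments of the stretch at ZT0 and ZT18, and 22 and 21 at ZT6 and ZT12. Of 9 Abcb11 contacts listed at 2 timepoints, 7 were listed at ZT0 and ZT18, against 14.9% of all such pairs. A fragment is listed only where its score reaches the minimum. These counts thus rest on scores of the same bait and stretch and are no separate evidence for the pattern. In the other order of the lists the higher pair would be ZT0 and ZT12. On the downstream side the start of G6pc2, 130 kb away and named after its values were seen, was absent at ZT0 and scored 8.66 at ZT6, 6.41 at ZT12 and 6.31 at ZT18.

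**Figure D4:**
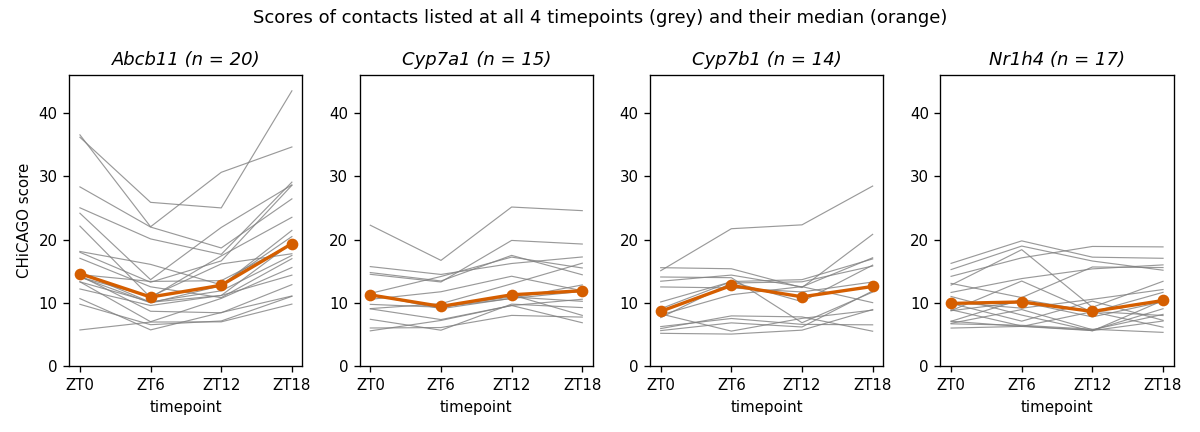
Scores (vertical axis) at ZT0, ZT6, ZT12 and ZT18 (horizontal axis) of every contact listed at all 4 timepoints for Abcb11, Cyp7a1, Cyp7b1 and Nr1h4, 1 grey line per contact with the median in orange. The Abcb11 median falls from 14.6 at ZT0 to 10.9 at ZT6 and stands at 19.3 at ZT18, while that of Nr1h4 stays between 8.65 and 10.4.

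Nr1h4, the gene of the bile acid receptor FXR, had 28, 26, 23 and 30 contacts, and 17 of 36 were constant, or 47.2%. They fell into 6 stretches, and all 6 were present at every timepoint. Of the 36 fragments, 13 lay inside the Nr1h4 gene itself. The strongest contact was the start of Slc17a8, a vesicular glutamate transporter gene 92.4 kb upstream, with scores of 16.2, 19.8, 17.2 and 17.0. The adjoining fragment beyond it scored 14.2, 17.1, 18.9 and 18.8. The 17 constant contacts were highest at ZT6 in 6, at ZT18 in 5, at ZT12 in 4 and at ZT0 in 2. Over all constant pairs these shares were 26.1%, 26.0%, 25.6% and 22.0%. Whether the Nr1h4 order differs from that of Abcb11 was not tested. The shared start of Scyl2 and 1500026H17Rik, 157 kb upstream, was also constant, with scores from 6.17 to 8.61.

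Nr0b2, the gene of the repressor SHP, had the same 2 contacts in every list. The fragment with the start of Nudc, 7.86 kb upstream, scored 8.00, 5.86, 6.89 and 7.28. That with the start of Gpatch3, 19.7 kb downstream, scored 7.68, 6.38, 8.85 and 6.79. Both were lowest at ZT6, against 24.7% of all constant pairs, which with 2 contacts was not tested. Members differed here: ZT6 was lowest in 13 of 20 constant contacts of Abcb11. For Slc27a5, Nr1h4 and Cyp7b1 it was lowest in 5 of 19, 3 of 17 and 2 of 14. For Cyp27a1, Baat and Slc10a1 it was lowest in 0. With 2 contacts the share of 100% listed at all 4 timepoints has an interval from 34.2 to 100%. At a minimum of 7 the numbers were 2, 0, 1 and 1, so presence in every list rests on the minimum of 5.

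**Figure D5:**
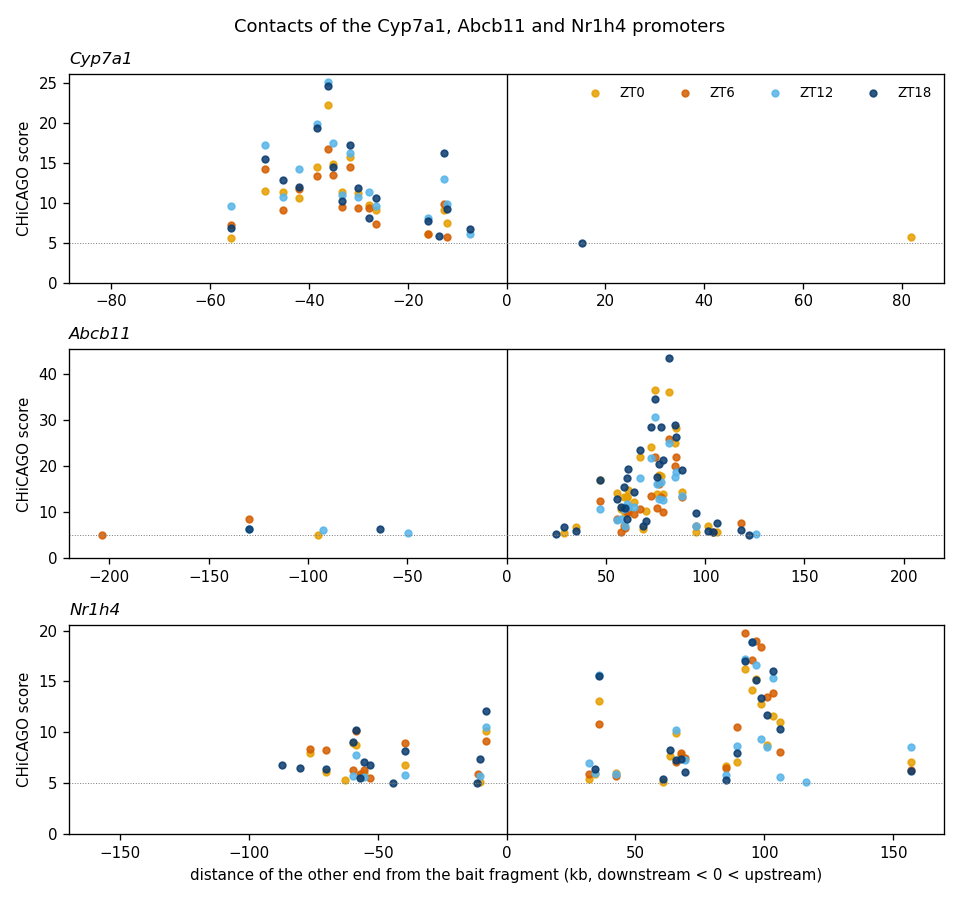
CHiCAGO score (vertical axis) against distance from the bait (kb, horizontal axis, downstream negative and upstream positive) for every listed contact of Cyp7a1, Abcb11 and Nr1h4, coloured by timepoint. Cyp7a1 contacts cluster downstream with a peak of 25.1 at 36.1 kb, Abcb11 contacts upstream with a peak of 43.5 at 81.9 kb, and Nr1h4 contacts lie on both sides. The dotted line is the minimum of 5.

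The other ends of the 211 contacts lay between genes in 102 cases, on exons in 45, on gene starts in 35 and in introns in 29. Cyp7b1 alone gave 49 of the 102. Joined where they lay within 10 kb of each other, the 211 fragments formed 51 stretches, of which 26 were present at all 4 timepoints and 17 at 1. Neither the places nor the stretches were counted over all listed pairs, so these numbers describe the members without a background. For each member, the bait that shared most contacted fragments with it lay on the same chromosome, and ties occurred for members with few shared fragments. Slc27a5 and Zbtb45, 7.14 kb apart, shared 32 fragments, which are 97.0% of the Slc27a5 list and 72.7% of the Zbtb45 list. Cyp7b1 and Bhlhe22 shared 28 (54.9% and 35.9%), Nr1h4 and Slc17a8 24 (66.7% and 40.7%), and Slc10a1 and Smoc1 8 (80% and 25.8%). Abcb11 shared 12 with AL929170.1, a bait that also holds the start of a shorter Abcb11 transcript (31.6% and 70.6%). Cyp7a1 shared fewest for its size, with 2 of 19 also contacted by Sdcbp and 2 by Nsmaf. The remaining 4 shared between 2 and 5 fragments with their likest bait.

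The wider pathway gave a similar spread. Of 34 further genes of synthesis, transport and control, 32 had a bait at their start. Their median was 9.5 distinct contacts, against 14.5 for the members and 9 over all baits. Over 30 contacts were found for 7 of the 32, or 21.9%, against 15.0% of all baits, and at most 10 for 17, or 53.1%, against 54.6%. The 32 genes lay on 31 baits, since Abcg5 and Abcg8 share one and its 3 contacts. The most were found for Acox2, the side-chain oxidase of peroxisomes, with 79, the oxysterol receptor gene Nr1h3 with 77 on a bait that holds other gene starts too, and the hepatic transcription factor gene Onecut1 with 76. The fewest were found for Hsd17b4 and Fgfr4 with 2 each, and 7 genes on 6 baits followed with 3 each. By role, the medians were 36.5 for regulators, 12 for synthesis and 9 for transport. Among transporters the highest number was 27, so that Abcb11 with 38 lay above all 11 of them, on 10 baits, while Slc10a1 with 10 lay near their median.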

How the data were processed

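Promoter capture Hi-C was made from mouse liver, in 16 sequencing samples that stand for 3 pools of 2 livers at each of 4 timepoints, with pool A on 2 lanes. The authors mapped reads to mm9 with HiCUP, pooled all libraries of 1 timepoint and called contacts with CHiCAGO, whose versions are not given in the sources used here. The deposited value is the CHiCAGO score of a fragment pair, from 5 upward, with 1 list per timepoint. The lists give no read depth, which was not used here, and a deeper timepoint can list more pairs.

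Gene starts were placed on baits through GENCODE vM1 in python 3.11.15 (pandas 2.3.3, numpy 2.4.6). A pair was counted whichever end was the member. Distances run between fragment midpoints. All 221 fragments of the members began at a HindIII site. Shares have 95% Wilson intervals. The counting and the motif search were tested on simulated data and gave back what had been planted. The members and lists were chosen with earlier results of these data known. Named are the 10 members, pathway genes with the 3 highest and 3 lowest numbers (ties counted), genes whose start is contacted at all 4 timepoints or by one of a member's 3 strongest contacts, and the bait sharing most fragments. Bhlhe22 also as a contact, Armc1, Ubxn2b, Lrp2, G6pc2, Abcg5, Abcg8, Abcb4, Akr1c6, Nr5a2, Rxra and Nr1i3 were named after their values were seen. Alternatives were higher score minima, equal list lengths, list totals, other bait definitions, a tolerance or joining within 10 kb, the gap as distance, the other order of the lists, and leaving out each promoter, the last chosen after seeing the data except for Cyp7b1. Some contacted gene starts and 1 promoter sequence are not reported here.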

Additional observations from a re-analysis of the deposited data

How the results depend on the processing

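A higher score minimum lowered the numbers of member contacts at ZT0, ZT6, ZT12 and ZT18 to 87, 93, 90 and 98 at 7, and to 52, 48, 53 and 58 at 10, with ZT18 highest in both. Joining other ends within 10 kb left 31, 37, 34 and 37 stretches, so that ZT6 and ZT18 were equal. In the other order of the lists the numbers were 134, 139, 163 and 148, with ZT12 highest. The share listed at 1 timepoint was 18.3% at a minimum of 10. Where another end within 10 kb counted as the same contact, the share listed at all 4 timepoints was 80.6% and that at 1 timepoint 9.48%. This rule was applied to member contacts only, so these shares cannot be set against those given above for all pairs. Without Cyp7b1 the median distance was 63.1 kb. The other 75 of 91 values stayed within 1.5 times of a number or within the interval of a share or median. Among these, the share listed at all 4 timepoints was 50.6% without Cyp7b1. Leaving out each other promoter gave 41.7% to 46.3%. Some of the 75 values could not move, so this tally is no measure of stability. All member gene starts already lay on baits, so taking the nearest bait changed nothing. The other order of the lists only puts the same numbers under other timepoints. No paired analysis was possible because contacts were called on merged pools, and for the same reason no replicate could be left out. Read depth is not in the lists and was not used here, and a contact absent from a list may have scored just under the minimum.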

Other observations

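Of the further pathway genes, 12 had a mean of at least 10 contacts. In 5 of these (41.7%) the highest number over the lists was at least 1.5 times the lowest. This lay near the 39.4% of all baits with a mean of at least 10. These were Abcb4, Akr1c6, Nr5a2, Nr1h3 and Onecut1, named after their values were seen. Among all baits with a mean of at least 30 contacts the share was lower, at 16.6%. Nr5a2, Nr1h3 and Onecut1 had means of 49.75, 46 and 52. Acox2, Rxra and Nr1i3, with means of 59.25, 36 and 39.5, did not reach 1.5 times. The difference from the 16.6% was not tested. Nr5a2, the gene of the receptor whose letters stand before Cyp8b1 and Nr0b2, had 37 contacts at ZT0 and 56, 54 and 52 at ZT6, ZT12 and ZT18. The Nr1h3 bait, which also holds other gene starts, had 60 at ZT0 and 43, 41 and 40 at the later timepoints. With 1 merged list per timepoint, none of these differences has a replicate check.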
